A study of Mus musculus with 4 samples.

Results

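The cells described here are macrophages of mouse melanomas that carried the complement gene C1q together with Mrc1, the gene of the mannose receptor CD206. The cells were selected on measured values of their own RNA. A cell was taken when its raw UMI counts (unique molecular identifiers, each marking 1 captured RNA molecule) held at least 3 UMIs of C1qa, C1qb and C1qc in sum, at least 1 of Csf1r and at least 1 of Mrc1. It also had fewer than 3 UMIs of Arg1, 0 of Nos2, 0 of Cd3d, Cd3e and Cd3g, and fewer than 2 of Mki67 and Top2a in sum. These gates found 408 of 25954 kept cells, 150 with control IgG, 41 with anti-PD-1, 160 with anti-PSGL-1 and 57 with both antibodies. They are called Mrc1-positive cells below. 2 neighbouring populations passed all gates but one. The 731 Mrc1-zero C1q macrophages (221, 231, 132 and 147, in the same order) had no Mrc1 UMI, and the 68 Arg1-high cells (19, 9, 26 and 14) had at least 3 Arg1 UMIs.

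The tumours were B16-GP33, a melanoma line of C57BL/6 origin carrying the viral peptide GP33, which had been placed under the skin of C57BL/6 mice. Mice received control IgG, an antibody to PD-1, an antibody to PSGL-1, or both, with 200 ug given of each on days 8, 10 and 12, and all tumours were collected on day 18. Leukocytes positive for CD45.2 and negative for propidium iodide, a dye of dead cells, were sorted and captured with 10x Genomics droplets, in 1 library for each treatment. No treatment was replicated, so no test between treatments was possible, and the number of mice behind a library is not given in the sources used here.

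Macrophages take up dying cells, lipoproteins and glycoproteins and present antigen. Mrc1 is an endocytic receptor for mannose- and fucose-bearing glycoproteins and, with the galactose-binding lectins Mgl2 and Clec10a, is a classical marker of macrophages exposed to interleukin-4 or interleukin-13. C1q starts the classical complement pathway and is made by mature tissue macrophages rather than by fresh monocytes. Interferon-gamma from T cells and NK cells drives another state, with the chemokines Cxcl9 and Cxcl10, guanylate-binding proteins and the PD-1 ligand Cd274. The antibody targets are PD-1, which restrains activated T cells, and PSGL-1, a leukocyte ligand for selectins.

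The libraries held 4614 to 9733 barcodes, of which 4382 to 9465 were kept, and the Mrc1-positive cells carried 367861 to 1430833 UMIs per library. The median Mrc1-positive cell had 6646.5 UMIs with IgG, 8329 with anti-PD-1, 8860.5 with anti-PSGL-1 and 10194 with the combination, against 5536, 7717, 7673.5 and 9265 in Mrc1-zero cells. Depth therefore differed both between libraries and across the Mrc1 gate, and shares are also given after every cell was thinned to 3000 UMIs. Median mitochondrial shares of Mrc1-positive cells were 2.04% to 2.70%. Each pair of libraries shared 6 to 14 cell barcodes. Levels are the summed UMIs of a gene in CPM, that is, scaled to a fixed total of UMIs over the same cells. Intervals are exact 95% intervals, cover counting error only and do not cover differences between mice.

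Mrc1-positive cells were scarcest with anti-PD-1 and most frequent with anti-PSGL-1, but their share of kept cells with anti-PSGL-1 was close to IgG after thinning. They made up 1.58% (1.34 to 1.86) of kept cells under IgG, 0.783% (0.562 to 1.06) under anti-PD-1, 2.33% (1.99 to 2.71) under anti-PSGL-1 and 1.30% (0.987 to 1.68) under both antibodies. With the gates applied after thinning to 3000 UMIs, the shares of kept cells were 1.28%, 0.485%, 1.35% and 0.786%. The intervals of IgG and anti-PSGL-1 then overlapped, while anti-PD-1 remained lowest. C1q macrophages as a whole did not follow the order of these shares, since cells that met the C1q and Csf1r gates were 6.19%, 10.1%, 7.37% and 7.60% of kept cells. Among C1q macrophages that passed every other gate, 40.4% (35.4 to 45.6) carried Mrc1 under IgG, 15.1% (11.0 to 19.9) under anti-PD-1, 54.8% (48.9 to 60.6) under anti-PSGL-1 and 27.9% (21.9 to 34.6) under both. After thinning to 3000 UMIs these shares were 29.8%, 11.3%, 44.6% and 22.7%, in the same order of libraries. T cells, which should lack Mrc1, had a thinned UMI of it in 1.37%, 0.136%, 0.698% and 0% of cells, at unthinned median depths of 3643, 8333, 6005 and 9761.5 UMIs. These shares count cells that the gates selected and describe the 4 libraries without a test.

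**Figure D1:**
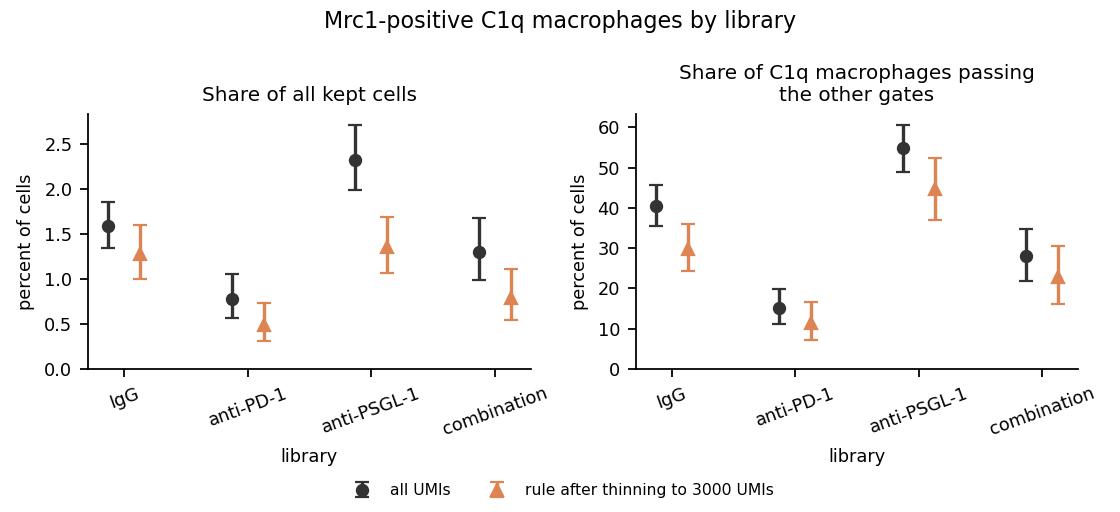
Left, share of kept cells (percent) that were Mrc1-positive C1q macrophages in each library; right, share of C1q macrophages passing all other gates that carried an Mrc1 UMI. Circles use all UMIs, triangles the gates applied after thinning to 3000 UMIs, and bars are exact 95% intervals of counting error; anti-PD-1 is lowest (15.1%) and anti-PSGL-1 highest (54.8%) in the right panel.

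Members were spread along the Mrc1 gate, and the gate values themselves are no result. The median member held 2, 2, 3 and 3 Mrc1 UMIs (at most 24, 16, 20 and 17), and 47, 16, 36 and 17 members held exactly 1. The median summed C1q count was 35.5, 35, 34.5 and 56 UMIs, far inside its minimum of 3. Just outside the other gates lay 7, 3, 4 and 0 cells with 2 C1q UMIs, 1, 2, 3 and 3 cells with 3 Arg1 UMIs, and 12, 11, 12 and 8 cells with a single Cd3 UMI. Mrc1 (ENSMUSG00000026712, chromosome 2, 14229392 to 14332057, plus strand, protein coding; coordinates here and below are GRCm38) stood at 431, 364, 513 and 396 CPM and C1qa (ENSMUSG00000036887, chromosome 4, 136895917 to 136898803, minus strand) at 2216, 1588, 1799.7 and 1602 CPM, in the library order already used, which is kept below.

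Markers that the gates did not use were set against T cells, which were chosen for having no Csf1r UMI. This comparison sets the cells apart from T cells and cannot tell macrophages from monocytes. Cd68, a lysosomal glycoprotein of macrophages, was detected in 80.5%, 92.1%, 76.4% and 74.5% of thinned Mrc1-positive cells and in 10.2%, 4.75%, 5.05% and 3.55% of thinned T cells. Fcgr1, the high-affinity Fc receptor gene, was detected in 68.8%, 73.7%, 59.0% and 65.5%, against 0.681% to 4.88% of thinned T cells. Its level was lower than in Mrc1-zero cells, at 446, 612, 352 and 411 against 548, 782, 416 and 606 CPM. Adgre1, the gene of F4/80, was detected in 37.5%, 42.1%, 34.7% and 34.5%, against 0.0486% to 1.64%. A monocyte gene was also common: Ccr2, the chemokine receptor of inflammatory monocytes, was detected in 68.8%, 71.1%, 63.2% and 69.1%. T cells had Ccr2 in 22.3%, 14.0%, 24.9% and 13.9%. Mertk, a macrophage receptor gene for the uptake of dying cells, was low, at 9.96, 10.9, 26.6 and 17.4 CPM. In Mrc1-zero cells it stood at 4.89, 3.81, 5.83 and 5.69 CPM.

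Defining genes of long-term resident macrophages were at or near 0 at this depth. Over all 4 libraries Cd163, the haemoglobin scavenger receptor, and Lyve1, the hyaluronan receptor of perivascular macrophages, had 1 UMI each, and Timd4 and Vsig4 had 0. Folr2, the folate receptor beta of resident macrophages, was detected in 1.56%, 0%, 6.94% and 9.09% of thinned cells. Apoe, the lipid carrier, was common, at 66.4%, 65.8%, 56.9% and 43.6% of thinned cells. Mrc1-zero cells had it in 64.8%, 57.7%, 61.7% and 55.8%, against 10.9%, 2.24%, 3.16% and 0.973% in T cells. Pf4, a platelet-type chemokine that tissue macrophages also make, was detected in 22.7%, 15.8%, 25.7% and 23.6% of thinned cells (38.7%, 24.4%, 36.2% and 28.1% unthinned). Ccl24, an eosinophil chemokine, was rare, in 4.69%, 0%, 4.17% and 3.64% of thinned cells and in 10, 2, 11 and 2 unthinned cells. It thus does not mark these cells as a group: Mrc1-zero cells had it in 4.40%, 1.35%, 8.33% and 4.35%.

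Markers of other cell types were also present. The monocyte list summed to 3564, 5306, 4006 and 4052 CPM, against 5477, 6525, 5067 and 6579 CPM in Mrc1-zero cells and 3175 to 4405 CPM in all kept cells. The list of type 1 conventional dendritic cells, which holds the interferon-induced Irf8, summed to 639, 913, 759 and 1114 CPM, against 739.6, 904, 598 and 775 CPM in all kept cells. The neutrophil list summed to 324 CPM in the IgG cells and 41.1 to 70.7 CPM in the others, with Ly6g and Camp at 0, and to 79.8, 71.4, 523 and 81.8 CPM in Mrc1-zero cells. The list of type 2 conventional dendritic cells (cDC2) summed to 187, 84.3, 227 and 136 CPM, above the 42.7 to 63.5 CPM of Mrc1-zero cells. A UMI of the dendritic cell genes Cd209a, Flt3, Ccl17, Zbtb46 or Ccr7 was carried by 14, 2, 18 and 4 Mrc1-positive cells. Among Mrc1-zero cells 13, 4, 8 and 2 carried one. These genes do not by themselves define a dendritic cell. The T cell list stood at 76.0 to 102.9 CPM against 2257 to 4253 CPM in all kept cells, but its 3 Cd3 genes were at 0 by the gates. The melanoma list stood at 40.7, 78.8, 34.2 and 44.3 CPM, above the 24.1, 22.3, 18.2 and 13.2 CPM of all kept cells. In all, 43, 12, 43 and 18 Mrc1-positive cells carried UMIs of genes chosen to mark other lineages. Doublets were not removed.

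Beside Mrc1, the Mrc1-positive cells of all 4 libraries carried more RNA of lectins, of an adhesion molecule, of lipid enzymes and of monocyte chemokines than the Mrc1-zero cells of the same libraries. They carried less of many interferon-gamma response genes. Of 7031 genes 315 passed (4.48%), of which 117 rose (1.66%) and 198 fell (2.82%), at an adjusted p under 0.05 in edgeR's quasi-likelihood test, with the library as a block. These fits use 4 libraries with a pair of summed profiles in each, and the genes of the gates are left out. Mrc1-positive cells were the deeper ones, and with every cell thinned to 3000 UMIs 60 genes rose and 70 fell. The count also depended on the libraries, with 51 higher and 57 lower without IgG, 146 and 247 without anti-PD-1, 75 and 111 without anti-PSGL-1, and 82 and 84 without the combination. Without the library block, which ignores that each pair shares a library, 10 rose and 4 fell, and DESeq2 called 44 and 74. None of the 315 calls took the opposite sign in any of these fits, of which the thinned one measured 273. All these fits reuse the same cells, so an unchanged sign was likely from the outset and is no independent evidence.

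The galactose lectins were among the higher genes. Mgl2 (ENSMUSG00000040950, chromosome 11, 70130329 to 70137550, plus strand), the CD301b lectin, stood at 248 CPM with IgG, 16.3 with anti-PD-1, 309.6 with anti-PSGL-1 and 101 with the combination, and at 46.4, 9.26, 54.4 and 9.95 CPM in Mrc1-zero cells. It was higher in the Mrc1-positive cells of every library, by 2.43 (SE 0.19, adjusted p = 6.9e-06) on the log2 scale. In the anti-PD-1 library it rested on 6 UMIs in 3 cells. Its neighbour Clec10a (ENSMUSG00000000318, chromosome 11, 70156197 to 70170834, plus strand), the CD301a lectin, stood at 96.0, 65.2, 143 and 119 CPM against 43.2, 36.5, 22.3 and 31.3 CPM and rose by 1.62 (SE 0.22, adjusted p = 0.00062). Both are also cDC2 genes. With cells that carried dendritic cell genes left out of both populations, a choice made after seeing the data, Mgl2 kept a difference of 2.31 (adjusted p = 2.8e-05) and Clec10a one of 1.37 (adjusted p = 0.014). Clec4b1, another C-type lectin gene shared with dendritic cells, rose by 1.45 (SE 0.20, adjusted p = 0.00062).

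Genes of tissue macrophages rose with the lectins. Pf4 (ENSMUSG00000029373, chromosome 5, 90772435 to 90773383, plus strand) stood at 340.4 CPM with IgG, 372 with anti-PD-1, 335 with anti-PSGL-1 and 136 with the combination, against 108, 27.8, 83.5 and 17.8 CPM in Mrc1-zero cells, a rise of 2.38 (SE 0.24, adjusted p = 3.9e-05). Folr2 (ENSMUSG00000032725, chromosome 7, 101839988 to 101857194, minus strand) stood at 17.2, 13.6, 30.1 and 31.7 CPM against 4.07, 2.72, 1.94 and 3.55 CPM and rose by 2.79 (SE 0.35, adjusted p = 0.00032), on few UMIs. Vcam1, the integrin ligand that tethers leukocytes, stood at 61.6, 29.9, 88.1 and 30.1 CPM against 19.5, 13.6, 6.80 and 6.40 CPM and rose by 2.09 (SE 0.29, adjusted p = 0.00066). Of 20 tested genes of a resident and alternative activation list, 11 rose and 1, the transglutaminase gene Tgm2 (-0.82), fell, with a median log2 difference of 0.90 against -0.00 over all tested genes. The factor Maf rose by 0.56 and the scavenger receptor gene Stab1 by 1.25, the latter with an adjusted p of 0.09 without IgG. The list's higher count was 8 without IgG, 14 of 23 without anti-PD-1, 10 of 21 without anti-PSGL-1, 12 without the combination and 8 of 17 after thinning. The list was chosen with earlier results of these data known, and its direction is no independent evidence.

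Membrane, lipid and lysosome genes followed. The tetraspanin genes Cd81 (163, 81.6, 145 and 177 CPM against 48.0, 28.3, 37.9 and 84.6 CPM) and Cd63 (377, 280.0, 299.8 and 196 CPM against 182, 97.5, 112 and 73.2 CPM) rose by 1.502 (SE 0.15, adjusted p = 3.9e-05) and 1.29 (SE 0.11, adjusted p = 1.1e-05). Lpl, which encodes lipoprotein lipase, stood at 506, 473, 361 and 768 CPM against 129, 217, 249 and 255 CPM and rose by 1.26 (SE 0.17, adjusted p = 0.00048). Pltp, the phospholipid transfer protein gene, rose by 1.06 (SE 0.15, adjusted p = 0.001). In the lipid handling list 5 of 23 genes rose (Cd63, Lpl, Pltp, Trem2 and Apoe) and 2 fell (Gpnmb and Npc2). The list's median was 0.01, and 5 rose in each fit that left out a library. Gpnmb and Npc2 each kept their call in only 1 of those 4 fits. In the lysosome list 5 of 20 rose (Ctsd, Ctsl, Grn, Ctsb and Hexa) and 0 fell, which became 1 without IgG and 3 without anti-PSGL-1. Of single genes outside these lists, Timp2, a metalloproteinase inhibitor, rose by 1.44 (SE 0.16, adjusted p = 0.00015) and Plxnd1, a semaphorin receptor, by 1.37 (SE 0.20, adjusted p = 0.00092).

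Of the chemokine genes that passed, 6 were higher and 1 lower. The CCR2 ligand genes Ccl7 (977, 1919, 568 and 926 CPM against 463, 835, 269 and 588 CPM) and Ccl12 (381, 1185, 309.6 and 259.5 CPM against 201, 356, 146 and 168 CPM) rose by 0.97 (SE 0.09, adjusted p = 3.2e-05) and 1.08 (SE 0.14, adjusted p = 0.00048). They lie close together and are related in sequence to Ccl2, so reads may be shared. Cxcl9 (ENSMUSG00000029417, chromosome 5, 92321347 to 92328079, minus strand), a CXCR3 ligand that draws effector T cells, stood at 417 CPM with IgG, 487 with anti-PD-1, 537 with anti-PSGL-1 and 698 with the combination. In Mrc1-zero cells it stood at 1113, 1545, 856 and 1385 CPM, higher in each library, and the difference was -1.21 (SE 0.12, adjusted p = 3.8e-05). In the chemokine list 6 of 17 genes rose (Pf4, Ccl12, Ccl7, Ccl9, Ccl6 and Ccl2) and only Cxcl9 fell, and 5 to 7 rose when a library was left out.

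Most tested genes of the interferon-gamma list were lower in Mrc1-positive cells, and the number that passed depended on the libraries. Of 24 tested genes 0 rose and 14 fell, with a median of -0.50. Gbp2 (ENSMUSG00000028270, chromosome 3, 142620602 to 142638008, plus strand), a guanylate-binding protein of cell-autonomous defence, stood at 273 CPM with IgG, 682 with anti-PD-1, 288 with anti-PSGL-1 and 674 with the combination against 689.7, 1284, 537 and 1361 CPM in Mrc1-zero cells, a difference of -1.08 (SE 0.09, adjusted p = 6.9e-06). Gbp2 shares sequence with Gbp2b, so its counts may be split. Irg1, the itaconate-producing enzyme gene, stood at 31.7, 155, 28.7 and 85.5 CPM against 79.0, 207, 128 and 183 CPM, a difference of -1.25 (SE 0.20, adjusted p = 0.0025), with an adjusted p of 0.093 after thinning. The PD-1 ligand gene Cd274 was at 99.6, 345, 94.4 and 165 CPM against 157, 404, 171 and 296 CPM, a difference of -0.67 (SE 0.12, adjusted p = 0.0047), with an adjusted p of 0.057 without IgG and 0.067 after thinning. The list's count of 14 became 4 of 25 without IgG, 7 without the combination and 3 after thinning, while Gbp2 and Cxcl9 passed in every fit that left out a library.

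Other antigen presentation and interferon groups gave weaker counts. In the MHC class I list 9 of 16 genes fell, with a median of -0.27, which became 0 without IgG, 3 without the combination and 5 after thinning. In the type I interferon list 7 of 22 fell, with a median of -0.48. This became 0 without IgG, 4 without the combination and 1 after thinning. Without IgG the adjusted p of Ifit3 (-1.36) was 0.061, and that of Rsad2 (-1.09) reached 0.28 without IgG or the combination. No gene of the MHC class II list, the peptides' presenters to CD4 T cells, passed in either direction among 10 tested. In the Fc receptor list 2 of 11 genes rose (Ms4a7 and Fcgrt) and 4 fell (Fcgr1, Ms4a6b, Ms4a6c and Fcer1g), which became 1 and 0 without IgG. Fcgr1 differed by -0.40 (SE 0.08, adjusted p = 0.013), with adjusted p values of up to 0.12 when a library was left out. Ly6i, a Ly6 family gene that may share reads with Ly6c2, had the lowest log2 difference of the genes named here, at -1.75 (SE 0.17, adjusted p = 3.8e-05), from 30.8, 81.6, 23.8 and 127 CPM against 96.1, 347, 118 and 270.2 CPM. Mgl2, Clec10a, Pf4, Folr2, Vcam1, Cd81, Cd63, Lpl, Ccl7, Ccl12, Cxcl9, Gbp2, Irg1, Ly6i and Il1b kept their calls whichever library was left out. Gsr (glutathione reductase), Inhba (activin subunit) and Itgal (an integrin chain) differed by -1.49, -1.09 and -1.11, and Il1b by -0.66 (SE 0.10, adjusted p = 0.0019).

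**Figure D2:**
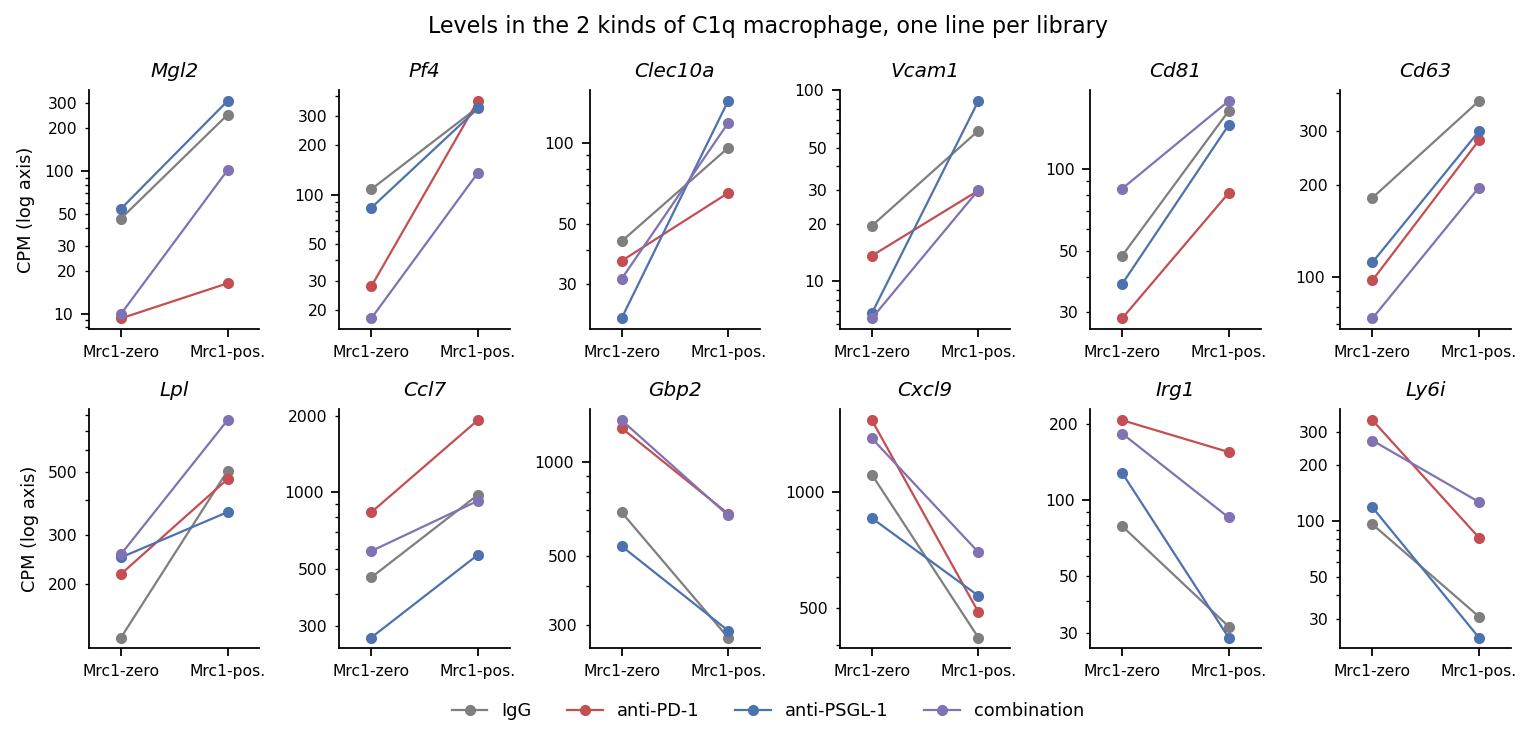
Level (CPM, log axis) of 12 genes in Mrc1-zero and Mrc1-positive C1q macrophages, with 1 line for each library joining its 2 populations. Mgl2, Pf4, Clec10a, Vcam1, Cd81, Cd63, Lpl and Ccl7 run upwards and Gbp2, Cxcl9, Irg1 and Ly6i downwards in all 4 libraries.

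**Figure D3:**
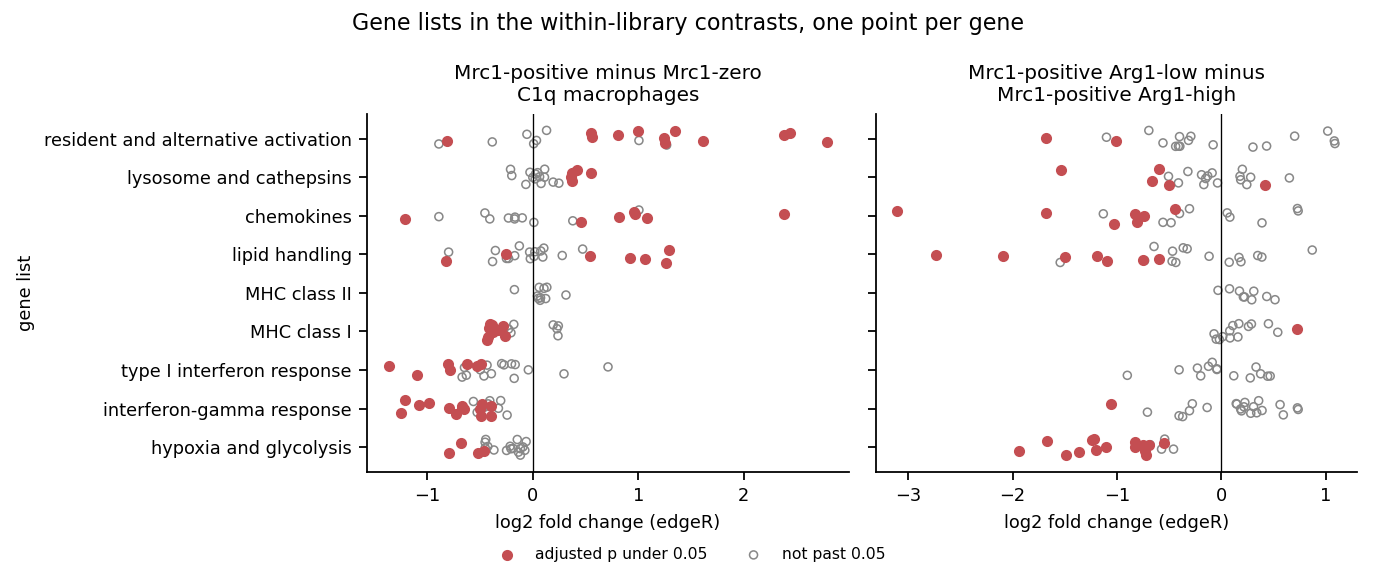
Log2 difference of each tested gene of 9 gene lists, Mrc1-positive minus Mrc1-zero cells and Mrc1-positive minus Arg1-high cells; filled points have an adjusted p under 0.05 in edgeR. The resident list lies to the right of 0 in the first comparison (11 of 20 higher) and the hypoxia list to the left in the second (16 of 20 lower).

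Promoter sequence is shown for Mrc1, the gene of the gate, for the lectin gene Mgl2 and for the interferon-response genes Gbp2 and Cxcl9. Mgl2 was higher and Gbp2 and Cxcl9 lower in Mrc1-positive cells, while the direction of Mrc1 was fixed by the gate. The stretches run from 250 to 32 bases before the RefSeq start of each gene (GRCm38.p6), 5′ to 3′ on the gene's strand, with the matched motif in capitals.
Mrc1, chr2:14229164-14229382, plus strand: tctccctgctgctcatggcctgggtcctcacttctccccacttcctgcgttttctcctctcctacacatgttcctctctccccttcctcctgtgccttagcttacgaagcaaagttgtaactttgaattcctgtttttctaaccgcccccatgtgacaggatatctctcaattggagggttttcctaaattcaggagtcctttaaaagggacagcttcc
Mgl2, chr11:70130107-70130325, plus strand: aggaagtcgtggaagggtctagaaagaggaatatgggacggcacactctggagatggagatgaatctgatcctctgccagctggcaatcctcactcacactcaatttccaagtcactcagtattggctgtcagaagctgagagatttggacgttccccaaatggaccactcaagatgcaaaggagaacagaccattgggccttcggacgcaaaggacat
Gbp2, chr3:142620413-142620631, plus strand: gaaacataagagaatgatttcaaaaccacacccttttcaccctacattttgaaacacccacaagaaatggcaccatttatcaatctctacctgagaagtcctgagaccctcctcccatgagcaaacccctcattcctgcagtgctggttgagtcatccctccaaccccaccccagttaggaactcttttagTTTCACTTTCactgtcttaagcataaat
Cxcl9, chr5:92328111-92328329, minus strand: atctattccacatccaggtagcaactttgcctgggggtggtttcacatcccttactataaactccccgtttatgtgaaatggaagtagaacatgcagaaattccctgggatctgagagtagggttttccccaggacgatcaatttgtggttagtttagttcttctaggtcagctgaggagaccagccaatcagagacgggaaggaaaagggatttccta
3 motifs were searched on both strands: TTCNNNGAA (the gamma-activated site), TTCNNNNGAA (the form bound by STAT6) and GAAANNGAAA (a core of the interferon-stimulated response element). Of 32851 mouse promoters, 6.24%, 5.20% and 2.62% held them in the same window. Gbp2 held 1 match, TTTCACTTTC at 59 to 50 bases before the start, which is GAAANNGAAA on the opposite strand. The Mrc1, Mgl2 and Cxcl9 windows held none of the 3, which says only that these letters are not in these windows.

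The Mrc1-positive cells were not uniform, and those with a Pf4 UMI differed from the rest. Among thinned cells, Ccl8, a chemokine gene, was detected in 11 of 29 cells with a Pf4 UMI and 6 of 99 without one in the IgG library (37.9% and 6.06%). It was detected in 23 of 37 against 3 of 107 with anti-PSGL-1 (62.2% and 2.80%), in 4 of 13 against 1 of 42 with the combination (30.8% and 2.38%) and in 1 of 6 against 1 of 32 with anti-PD-1. Ly6c2, the surface marker gene of inflammatory monocytes, ran the other way. It was detected in 10.3% of cells with Pf4 against 45.5% without in the IgG library, 33.3% against 59.4% with anti-PD-1, 13.5% against 47.7% with anti-PSGL-1 and 7.69% against 54.8% with the combination. T cells had Ccl8 in 0.407% to 1.11% of thinned cells. They had Ly6c2 in 41.6% to 58.1%, but activated T cells express this gene themselves and give no background for it.

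Trem2 and Gas6 sat on the Pf4 side. Pf4 was detected in 36.0%, 37.5%, 69.7% and 43.8% of thinned cells with a UMI of Trem2, a lipid-sensing receptor of macrophages, and in 14.1%, 10.0%, 12.6% and 15.4% of those without. Of the few cells with a UMI of Gas6, which bridges dying cells to their uptake receptors, 5 of 6, 1 of 1, 12 of 15 and 1 of 1 also had Pf4. Fn1, the fibronectin gene, gave no constant order, since Pf4 was detected in 14.8%, 21.4%, 7.41% and 31.6% of cells with Fn1 and in 28.4%, 12.5%, 36.7% and 19.4% of those without. Cells of 1 library are not replicates, so these shares are descriptions.

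**Figure D4:**
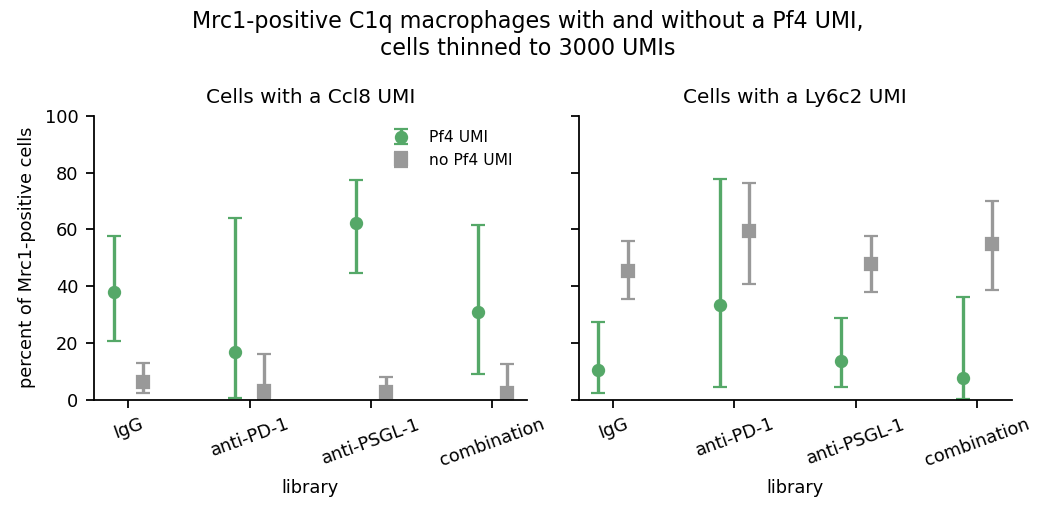
Share of Mrc1-positive cells (percent, cells thinned to 3000 UMIs) with a UMI of Ccl8 or Ly6c2, in cells with and without a Pf4 UMI, by library; bars are exact 95% intervals. Ccl8 is more frequent and Ly6c2 less frequent in the Pf4-carrying cells of every library, on only 6 such cells with anti-PD-1.

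Against Arg1-high cells, which carry the arginase gene beside Mrc1, the Mrc1-positive cells held less RNA of most hypoxia genes. Of 3718 tested genes 116 passed (3.12%), of which 18 rose (0.484%) and 98 fell (2.64%), again without the genes of the gates. The Arg1-high populations numbered 9 to 26 cells. Counts fell to 4 higher and 27 lower without IgG and to 0 higher and 30 lower without anti-PSGL-1, where 364 genes had an unadjusted p under 0.05, and were 34 and 126 without anti-PD-1. DESeq2 called 7 and 73.

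In the hypoxia and glycolysis list 0 of 20 genes rose and 16 fell, with a median of -0.79 against 0.02 over all tested genes. The count was 6 without IgG, 5 of 19 without anti-PSGL-1 and 13 of 18 after thinning. Hilpda, a lipid droplet protein gene induced by hypoxia, stood at 454, 609, 419 and 218 CPM against 1115, 1113, 1171 and 867.6 CPM in Arg1-high cells, a log2 difference of -1.49 (SE 0.17, adjusted p = 0.0001) and passed in every fit that left out a library. The growth factor gene Vegfa (-1.20) did not, with an adjusted p of up to 0.16. In the lipid list 7 of 22 fell, among them Abca1, the cholesterol exporter gene, and the membrane glycoprotein gene Gpnmb. Abca1 stood at 21.7, 24.5, 28.7 and 15.8 CPM against 94.8, 168, 240.2 and 87.7 CPM in Arg1-high cells and differed by -2.74 (SE 0.26, adjusted p = 2.2e-05), and Gpnmb differed by -2.09 (SE 0.35, adjusted p = 0.0028). The count of 7 became 3 without IgG and 3 without anti-PSGL-1. In the iron list 3 of 9 fell and 0 rose, which became 1 without IgG and 2 without anti-PSGL-1. The iron storage gene Fth1 differed by -0.75 (SE 0.06, adjusted p = 8.8e-06), and Ctsl, a lysosomal protease gene, by -1.54 (SE 0.19, adjusted p = 0.00022).

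Inflammatory genes were also lower than in Arg1-high cells. The neutrophil chemokine gene Cxcl3 stood at 46.2, 2.72, 50.3 and 9.50 CPM against 229, 0, 417 and 229 CPM in Arg1-high cells and differed by -3.10 (SE 0.33, adjusted p = 5.9e-05), lower in 3 of 4 libraries, and Clec4d, an activating lectin receptor gene, by -1.75 (SE 0.19, adjusted p = 8.1e-05). In the chemokine list 7 of 17 fell (Cxcl3, Pf4, Cxcl2, Ccl6, Ccl7, Ccl9 and Ccl2) and 0 rose. The count of 7 became 1 without IgG and 3 without anti-PSGL-1. Of these genes Pf4, Ccl6, Ccl7, Ccl9 and Ccl2 were higher than in Mrc1-zero cells, so their levels lay between those of the 2 neighbouring populations. Pf4 differed by -1.68, with adjusted p values of up to 0.071 when IgG or anti-PSGL-1 was left out. Osteopontin (Spp1) stood -1.498 apart with adjusted p values of up to 0.29. Of the higher genes, Il1r2, the decoy receptor of interleukin-1, was at 2.42 and lost its call without IgG or anti-PSGL-1 (adjusted p up to 0.31). In the interferon-gamma list 1 of 22 genes fell and 0 rose, and in the MHC class II list 0 of 9 passed in either direction. The MHC class II count depended on the setting, with 3 of 10 higher without anti-PD-1, 6 of 8 higher after thinning and 5 of 12 higher with no filter on low counts.

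With anti-PD-1, the 41 Mrc1-positive cells carried the interferon-gamma response at higher levels than the 150 IgG cells and little of the lectin Mgl2. In this and the next comparisons higher and lower mean a ratio of 1.5-fold or more in CPM among genes with a mean of at least 10 CPM, with no test. The 3 comparisons with IgG share the IgG cells. By this size 16.8% of 6714 genes were higher and 15.3% lower, so a large share of genes passed in this small group. In the interferon-gamma list 21 of 24 genes were higher and 1 (Ccl5) lower, with a median log2 ratio of 1.30 against 0.00 over all genes. Mrc1-zero cells of the same libraries had 21 of 24 higher, with a median of 1.02, beside 10.1% of their genes higher.

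Iigp1, an immunity-related GTPase, stood at 33.5 CPM with IgG, 277 with anti-PD-1, 82.5 with anti-PSGL-1 and 163 with the combination, and the anti-PD-1 ratio was 8.28 (5.63 to 12.4). Gbp2 had a ratio of 2.50 (2.10 to 2.96) and Irg1 one of 4.89 (3.16 to 7.68). Cd274, the PD-1 ligand, stood at 99.6, 345, 94.4 and 165 CPM, a ratio of 3.47 (2.66 to 4.52). Fcgr4, an activating Fc receptor gene, stood at 189, 655, 174 and 378 CPM and had a ratio of 3.46 (2.86 to 4.19). Cxcl9 did not pass, at a ratio of 1.17 (0.976 to 1.39), and neither did any of 10 MHC class II genes.

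Most type I interferon genes were higher as well, and chemokine and cytokine genes were mixed. In the type I list 16 of 22 were higher and 2 lower, with Rsad2 at 70.6, 256, 63.6 and 31.7 CPM. In the chemokine list 6 of 18 were higher and 6 lower. Ccl12 stood at 381, 1185, 309.6 and 259.5 CPM and Ccl7 at 977, 1919, 568 and 926 CPM, ratios of 3.11 (2.71 to 3.56) and 1.96 (1.78 to 2.16). In the cytokine list 8 of 19 were higher and 6 lower, median 0.09, with Il6, Il1a and Csf1 among the lower. The cytokine genes Tnf (130.4, 468, 138 and 176 CPM) and Il1rn (343, 1049, 317 and 309 CPM), the interleukin-1 receptor antagonist, had ratios of 3.59 (2.86 to 4.51) and 3.06 (2.65 to 3.53). Genes of a dissociation stress list moved with these: 7 of 20 were higher (Hspb1, Hspa1b, Dusp1, Ier3, Atf3, Zfp36 and Jun) and 0 lower, median 0.38, and its part in the cytokine values was not tested.

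The lower genes included the lectin gene Mgl2 and the lipid carrier gene Apoe. Mgl2 had a ratio of 0.0658 (0.0239 to 0.145), from 274 UMIs in 33 cells with IgG and 6 UMIs in 3 cells with anti-PD-1. In Mrc1-zero cells it was also lower with anti-PD-1 (9.26 against 46.4 CPM). The other lectin gene, Clec10a, did not pass, at a ratio of 0.680 (0.417 to 1.07), and neither did Pf4, at 1.09 (0.893 to 1.33). Apoe stood at 3626, 2172, 2711 and 1606 CPM, a ratio of 0.599 (0.555 to 0.646), and Stab1, a scavenger receptor gene, at 96.0, 48.9, 102 and 41.1 CPM. In Mrc1-zero cells Apoe was also lower with anti-PD-1 by 1.5-fold or more. In the resident and alternative activation list 3 of 22 genes were higher and 7 lower, with a median of -0.05. Gstp1, a glutathione transferase gene, stood at 63.4, 5.44, 59.4 and 68.1 CPM. Mrc1-zero cells also had it lowest with anti-PD-1, at 64.3, 7.63, 71.9 and 65.4 CPM. It has near-identical copies in the genome, so its counts are uncertain.

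With anti-PSGL-1, the Mrc1-positive cells were near to IgG in number and fewer genes passed, 8.31% higher and 7.13% lower of 6716. The interferon-gamma list had 5 of 24 genes higher (Iigp1, Irgm2, Gbp4, Igtp and Irgm1) and 0 lower, median 0.19. In Mrc1-zero cells it had 1 higher and 5 lower, median -0.37, beside 8.18% of genes higher and 7.55% lower. Gbp2 had a ratio of 1.05 (0.906 to 1.23) and Cd274 one of 0.947 (0.731 to 1.23), both within the size. The type I list had 5 of 22 higher and 1 lower, against 0 higher and 18 lower in Mrc1-zero cells. The difference between the populations in their ratios was not tested.

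Ccl8 and Retnla stood out among the tissue-type genes. Ccl8 stood at 301 CPM with IgG, 166 with anti-PD-1, 731 with anti-PSGL-1 and 277 with the combination, a ratio of 2.43 (2.15 to 2.76), and at 93.6, 294, 101 and 231 CPM in Mrc1-zero cells. The anti-PSGL-1 cells were the highest of the 8 populations. Retnla, an alternative activation protein gene known from mouse macrophages exposed to interleukin-4, had 0, 0, 85 and 111 UMIs, in 6 cells each of the anti-PSGL-1 and combination libraries. Mrc1-zero cells held it at 0, 0.545, 0 and 0.711 CPM. Gas6 stood at 17.2, 5.44, 37.7 and 19.0 CPM and Folr2 at 17.2, 13.6, 30.1 and 31.7 CPM. In the resident list 6 of 23 genes were higher (Retnla, Ccl8, Gas6, Cbr2, Ear2 and Folr2) and 2 lower (Ccl24 and Pparg), median 0.23. Mgl2 was at a ratio of 1.25 (1.07 to 1.46), short of the size.

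In the chemokine list 2 of 18 genes were higher (Ccl8 and Ccl17) and 4 lower (Ccl3, Ccl4, Ccl24 and Ccl7), median -0.14. Ccl17 and Ccl24 did not hold their direction. The log2 ratio of Ccl17 was -1.66 with gates and levels after thinning, and -0.093 without its top cell. That of Ccl24 was 0.14 without cells carrying markers of other lineages. Ccl3 stood at 389, 484, 119.5 and 289.6 CPM and Ccl4 at 1428, 2297, 587 and 608 CPM, with ratios of 0.307 (0.256 to 0.367) and 0.411 (0.378 to 0.447). In Mrc1-zero cells they stood at 311, 384, 311 and 224 CPM and 927, 1843, 1163 and 878 CPM, where neither gene was lower with anti-PSGL-1 by 1.5-fold. The heat shock genes moved with them: Hspa1a stood at 543, 525, 224 and 685 CPM (reads may be shared with Hspa1b), and 4 of 20 dissociation stress genes were lower and 0 higher, median -0.29. Their part in the chemokine values was not tested. Crip1, a zinc-binding LIM protein gene, stood at 1824, 1207, 3469 and 2168 CPM and the metallothionein Mt1 at 613, 707, 1237 and 513 CPM, with ratios of 1.90 (1.81 to 2.00) and 2.02 (1.85 to 2.21).

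With both antibodies, the Mrc1-positive cells had most interferon-gamma genes at higher levels than the IgG cells and 9 of 19 cytokine genes at lower levels. 12.7% of 6717 genes were higher than with IgG and 8.61% lower. In the interferon-gamma list 19 of 24 were higher and 0 lower, median 0.83, and in Mrc1-zero cells 19 higher and 1 lower, median 0.84, beside 10.2% and 5.48% of genes. Gbp2 had a ratio of 2.47 (2.12 to 2.87) and Iigp1 one of 4.87 (3.31 to 7.29). Cd274 and Fcgr4 had ratios of 1.65 (1.25 to 2.18) and 2.00 (1.65 to 2.42). In the type I list 2 of 22 were higher and 4 lower, against 0 higher and 10 lower in Mrc1-zero cells. Rsad2 had a ratio of 0.448 (0.260 to 0.740) in the Mrc1-positive cells. The MHC class I list had 4 of 16 higher and 0 lower, the same counts as with anti-PD-1. In the complement list 3 of 11 genes were higher and 0 lower, among them C3, the central complement component, and Cfb, factor B of the alternative pathway.

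More cytokine and chemokine genes were lower than higher in the Mrc1-positive cells with the combination. In the cytokine list 1 of 19 genes was higher and 9 lower, median -0.57, and in the chemokine list 1 of 18 was higher (Cxcl9) and 6 lower. Mrc1-zero cells had 4 of 17 cytokine genes higher and 0 lower, median -0.01, and 1 of 17 chemokine genes higher and 4 lower. The difference between the populations was not tested. In the Mrc1-positive cells Cxcl9 had a ratio of 1.67 (1.46 to 1.91), and a log2 ratio of -0.30 after thinning. Pf4 had a ratio of 0.400 (0.313 to 0.507), and a log2 ratio of 0.0895 after thinning. For both genes the thinned value used gates reapplied to thinned counts, which left 74 IgG and 32 combination cells. Il1b, an inflammatory cytokine gene, stood at 4183, 4009.7, 3056 and 2061 CPM, a ratio of 0.493 (0.463 to 0.524). Apoe had a ratio of 0.443 (0.413 to 0.475) and Spp1 (717, 1528, 456 and 248 CPM) one of 0.347 (0.290 to 0.412). Apoe was also lower with the combination in Mrc1-zero cells, by 1.5-fold or more. Mgl2 had a ratio of 0.408 (0.306 to 0.538), between the other treated libraries. In the resident list 3 of 23 genes were higher (Retnla, Folr2 and Ear2) and 6 lower (Pf4, Mgl2, Ccl24, Stab1, Cbr2 and Igf1), median -0.03. Ccl24 stood at 85.1, 5.44, 40.5 and 36.4 CPM over the libraries, and 57 of its 94 UMIs with IgG lay in 1 cell. In the lipid list 6 of 23 were higher and 7 lower, median 0.05, with Lpl at 1.52 (1.34 to 1.72) and Pltp (105, 103, 196 and 223 CPM) at 2.12 (1.65 to 2.74).

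Set directly against the single antibodies, the combination cells had fewer interferon-gamma genes higher than lower against anti-PD-1, and more against anti-PSGL-1. Against anti-PD-1, 17.5% of genes were higher and 15.4% lower, and in the interferon-gamma list 1 of 24 was higher and 7 lower, median -0.29. Rsad2 had a ratio of 0.124 (0.0724 to 0.202), Tnf of 0.376 (0.293 to 0.480) and Il1rn of 0.294 (0.246 to 0.350). In the cytokine list 4 of 19 were higher and 10 lower, median -0.78, and in the chemokine list 5 of 17 higher and 7 lower. The dissociation stress list had 1 of 20 higher and 8 lower in this comparison, median -0.48, and its part in the cytokine values was not tested. Against anti-PSGL-1, 10.7% of genes were higher and 10.1% lower, and in the interferon-gamma list 13 of 24 were higher and 0 lower, median 0.69. The cytokine list had 2 of 19 higher and 8 lower there, and the chemokine list 3 of 18 higher and 5 lower. There Gbp2 had a ratio of 2.34 (2.04 to 2.69), Ccl8 of 0.379 (0.321 to 0.445) and Mgl2 of 0.327 (0.248 to 0.426). Of the genes of the antibody targets, Selplg, which encodes PSGL-1, stood at 139, 133, 145 and 138 CPM, and Pdcd1, which encodes PD-1, had 4, 0, 3 and 3 UMIs.

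**Figure D5:**
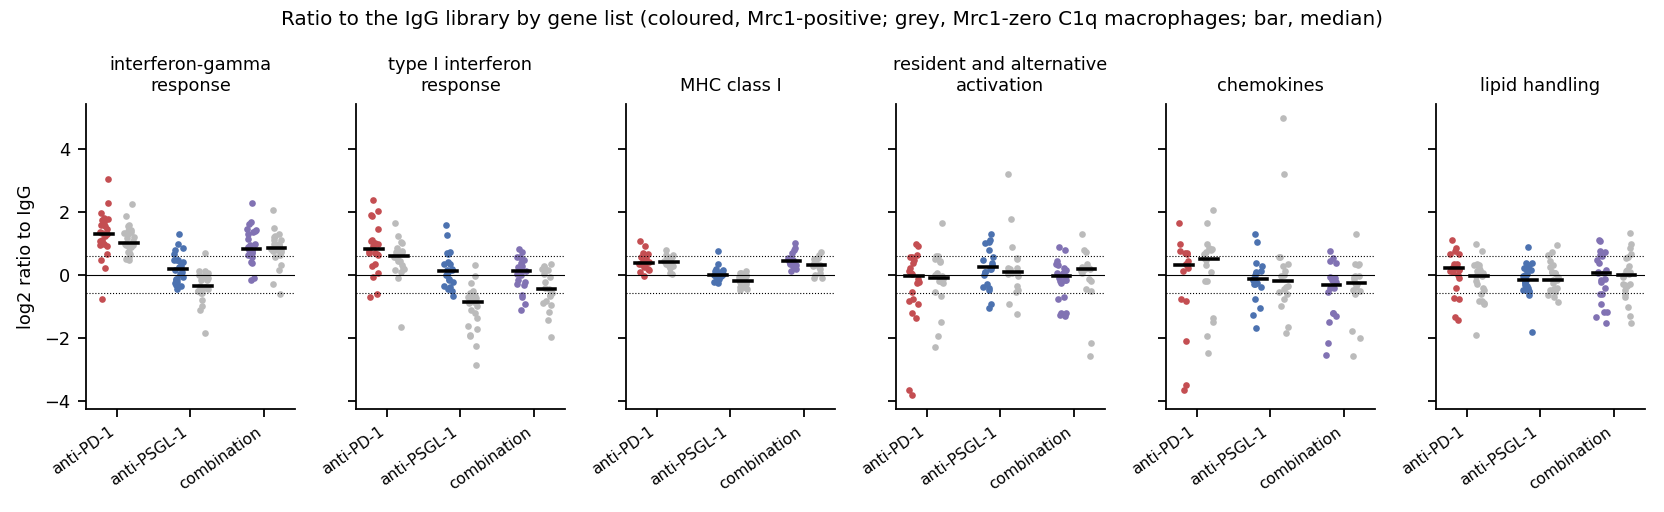
Log2 ratio to IgG of the genes of 6 lists in Mrc1-positive cells (coloured) and Mrc1-zero cells (grey) of the treated libraries; bars are medians and dotted lines mark 1.5-fold. Genes with 0 UMIs in either library are in the medians but not drawn; the interferon-gamma medians are 1.30, 0.19 and 0.83 in Mrc1-positive cells and 1.02, -0.37 and 0.84 in Mrc1-zero cells.

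Some single genes with large ratios rested on 1 cell. Of the UMIs of the metalloproteinase gene Mmp12 in the combination cells 228 of 230 came from 1 cell, and of the lysozyme gene Lyz1 188 of 192. Of the heat shock gene Hspb1 all 52 UMIs of the anti-PD-1 cells came from 1 cell, and of Mmp13 44 of 59. Lyz1 was also called against Mrc1-zero cells (2.85) and may share reads with Lyz2. The calprotectin genes S100a8 and S100a9 had 106 and 170 UMIs with IgG, of which 72 and 92 lay in 1 cell, and at most 4 in any other library.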

How the data were processed

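Gene by cell tables of 4 single-cell libraries were used, 1 for each treatment. The deposited tables hold raw UMI counts with no normalisation, made by the authors with Cell Ranger 3.1.0 on mm10, per the submitters' processing notes, which also name FastQC. The gene annotation is not given in the sources used here, and the count tables hold molecules, so amplification copies count once.

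Barcodes were kept from 300 genes up, with mitochondrial UMIs of at most 10% and a total of at most 60000, and the gates were applied to raw UMIs. The cells, gene lists and tests were chosen with earlier results of these data known. UMIs were summed per library and population. Levels carry exact Poisson intervals, ratios exact conditional intervals and shares Clopper-Pearson intervals, all at 95% and for counting error only; 0 UMIs allow up to 3 UMIs, which is 2.10 to 8.16 CPM. Log2 ratios for lists add 0.5 UMIs to each sum. Thinned shares leave out 22, 3, 16 and 2 shallower Mrc1-positive and 39, 9, 12 and 9 Mrc1-zero cells. T cells had at least 3 Cd3 UMIs and no Csf1r.

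The populations within libraries were compared with edgeR 4.0.16 (TMM, filterByExpr, glmQLFTest, Benjamini-Hochberg adjustment over all genes tested, 0.05), with the library as a block because both profiles of a pair come from 1 library. The libraries received different treatments, so the test asks whether a difference recurs over 4 libraries. DESeq2 1.42.0 was an alternative. Doublets were not removed. Scrublet set thresholds that took 1, 84, 0 and 42 cells, which failed for IgG and anti-PSGL-1, so the alternative removed 0.8% of cells for each 1000 by score, with 9, 1, 6 and 0 Mrc1-positive cells.

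Genes were named by rule: for each treated library the 6 higher and 6 lower genes with the ratio bound farthest from 1 at a mean of 30 CPM, for each edgeR comparison the 10 higher and 10 lower genes with the largest difference and 1 sign in all 4 libraries, and up to 3 genes of each list each way. Genes named outside the rule were chosen after their values were seen, as were those drawn by level. Values of some single genes are not reported here. The test scripts were checked on simulated data. Gene coordinates are from GENCODE M21 and promoters from RefSeq (GRCm38.p6); Clec10a has no promoter shown. Python 3.11.15, scanpy 1.11.5, scipy 1.17.1 and R 4.3.3 were used.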

Additional observations from a re-analysis of the deposited data

Results flagged for a closer look

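Only genes named in this text were searched. Of these, 8 stood higher in Mrc1-positive than in Mrc1-zero cells of 1 library and lower in those of another. Their whole intervals lay past 1.5-fold each way. The differences between libraries were not tested. The osteopontin gene Spp1 had a ratio of Mrc1-positive to Mrc1-zero cells of 1.93 in the anti-PD-1 library, 0.462 under anti-PSGL-1 and 0.412 under both antibodies. The protease inhibitor gene Slpi had 1.96 with IgG, 0.280 with anti-PSGL-1 and 0.149 with the combination, and 63 of its 183 UMIs with IgG were in 1 cell. Ccl24 had 2.75 with IgG and 0.142 with anti-PSGL-1, where 214 of the 295 UMIs of Mrc1-zero cells were in 1 cell, as were 57 of 94 UMIs of the IgG cells. The fatty acid carrier gene Fabp4 had 5.44 with the combination, with 40 of 44 UMIs in 1 cell, and 0.195 with anti-PSGL-1. Hspb1 had 3.93 under anti-PD-1 against 0.195 under anti-PSGL-1, and the collagenase gene Mmp13 had 19.6 and 0.207. The calprotectin genes S100a8 and S100a9 had 6.20 and 10.5 with IgG and 0.00981 and 0.0129 with anti-PSGL-1.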

How the results depend on the processing

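The share of kept cells that were Mrc1-positive was 1.28%, 0.485%, 1.35% and 0.786% (IgG, anti-PD-1, anti-PSGL-1, combination) with the gates applied after thinning, and 1.09%, 0.477%, 1.81% and 0.913% with at least 2 Mrc1 UMIs. Against IgG, a minimum mean of 50 CPM gave 332 higher and 193 lower genes for anti-PD-1, 78 and 71 for anti-PSGL-1, and 169 and 86 for both antibodies. No filter on low values gave 2159 higher for anti-PD-1, 1389 and 1428 for anti-PSGL-1, and 2100 and 1182 for both. Gates and levels after thinning gave 1282 and 1142 for anti-PSGL-1 and 1135 lower for both. Leaving out cells with markers of other lineages gave 722 lower for anti-PSGL-1 and 902 lower for both. With gates and levels after thinning, 24 of the 42 testable named genes of the combination stayed past 1.5-fold. The same held for 22 of 28 with anti-PSGL-1 and 35 of 45 with anti-PD-1.

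Against Mrc1-zero cells, leaving out a library gave 51 to 146 higher and 57 to 247 lower genes, no filter 183 and 382, thinning 60 and 70, DESeq2 44 and 74, and leaving out cells with markers of other lineages 74 and 122. Without the library block, that is, with the pairing of both profiles of a library (the replicate block) ignored, 10 rose and 4 fell. Against Arg1-high cells, leaving out a library gave 0 to 34 higher and 27 to 126 lower genes, no filter 65 higher, DESeq2 7 higher and, without the library block, 3 higher and 53 lower. Of the 315 calls against Mrc1-zero cells, 115 remained after thinning, 118 with DESeq2 and 14 without the block. Where measured, 0 changed sign under any setting, and the same held for the 116 calls against Arg1-high cells. Thinning left 273 and 83 of these calls measured. All settings reuse the same cells, so the unchanged signs are no independent evidence.

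For the ratios below, thinning includes gates reapplied to thinned counts, which left 74, 22, 78 and 32 Mrc1-positive cells in the library order. Log2 ratios to IgG that changed sign follow, and the cause was not tested. After thinning these were Ccl8 at 0.47 and Mmp12 at 1.19 (anti-PD-1), Ccl17 at -1.66 and Fabp4 at 1.20 (anti-PSGL-1), and Cxcl3 at 0.96, Cxcl9 at -0.30, Fabp5 at 0.30, Gpnmb at 2.10, Pf4 at 0.0895, Slpi at 0.83, Trem2 at 0.28 and Hmox1 at -0.18 (combination). With at least 2 Mrc1 UMIs they were Ccl8 at 0.39 and Ly6i at -0.16 (anti-PD-1), and Fabp4 at -3.65, Hmox1 at -0.65, Hspb1 at -1.45 and Mmp12 at -4.37 (combination). Without cells carrying markers of other lineages they were Slpi at 0.46 (anti-PD-1), Ccl24 at 0.14 and Slpi at 0.47 (anti-PSGL-1), and Ccl24 at 0.75, Fabp4 at -1.14 and Mmp12 at -4.18 (combination). With each cell weighing the same, Fabp4 was at -0.013 (combination). Without the cell holding the most UMIs of a gene, an alternative chosen after seeing the data, they were Hspb1 at -1.76 (anti-PD-1), Ccl17 at -0.093 (anti-PSGL-1), and Fabp4 at -1.38, Hspb1 at -0.998, Lyz1 at -0.20 and Mmp12 at -4.10 (combination). With 41 and 57 cells, the anti-PD-1 and combination libraries limit what low genes can show.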
